A study of Mus musculus with 20 samples.

Results

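The apolipoprotein genes described here are *Apoa1*, *Apoa2*, *Apoa4*, *Apoa5*, *Apob*, *Apoc1*, *Apoc2*, *Apoc3*, *Apoe* and *Apom*, 10 of the 18194 genes that a probe set of the array names alone. They were grouped because *Apoa4* was among the genes with the largest fall in the livers of *IMP2-2* transgenic mice. Every probe set annotated to one of these genes was taken, which gave 16 probe sets, each annotated to a single member. The genotype contrast itself therefore chose the set, and the genotype differences of its members are given below as a description without a test. RNA was measured on Affymetrix mouse genome arrays in livers of 10 *IMP2-2* transgenic (tg) mice, which carry the p62 splice variant of the IGF2 mRNA binding protein IMP2, and of 10 wildtype (wt) mice. All mice were untreated, 5 weeks old and of the C57Bl6J/DBA2 background. The sources used here do not name the promoter that drives the transgene, and no probe set for the transgene's own gene was analysed here, so the genotype labels were not checked against it.

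Apolipoproteins coat the lipoprotein particles that carry lipid in blood. ApoB is the structural protein of very low density lipoproteins, ApoA-I and ApoA-II are the main proteins of high density lipoproteins, and the smaller exchangeable apolipoproteins move between particles and steer lipoprotein lipase and receptor uptake. In the mouse, *Apoa4* is made by intestine and liver, and its hepatic transcription is known to respond to fasting, to lipid load and to the liver transcription factors CREB3L3 and HNF4A. *Apoa1*, *Apoc3*, *Apoa4* and *Apoa5* stand next to each other in this order on chromosome 9, and *Apoc2*, *Apoc4*, *Apoc1* and *Apoe* follow each other on chromosome 7.

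RefSeq promoter sequences of build GRCm38.p6, reaching from 250 bases before to 50 bases after the transcription start, were matched to 8 of the 10 members. The 3 from the chromosome 9 cluster are shown because *Apoa4*, *Apoa1* and *Apoa5* are neighbours whose signals behaved differently in these livers. Capitals mark every match to CAAAGTNCA (a binding site of the HNF4 type), TGACGTCA (the cAMP response element, bound by CREB-type factors), AGGTCA (a hexamer recognised by nuclear receptors) or TATAAA (the TATA box), searched on both strands, and no matches overlapped.
Apoa4, chr9:46240594-46240893, + strand: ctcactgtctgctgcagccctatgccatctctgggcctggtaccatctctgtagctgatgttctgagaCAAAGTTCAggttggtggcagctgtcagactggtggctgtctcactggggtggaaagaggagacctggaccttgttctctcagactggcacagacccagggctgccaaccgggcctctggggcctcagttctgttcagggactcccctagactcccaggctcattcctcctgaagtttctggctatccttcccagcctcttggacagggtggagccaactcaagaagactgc
Apoa1, chr9:46228380-46228679, + strand: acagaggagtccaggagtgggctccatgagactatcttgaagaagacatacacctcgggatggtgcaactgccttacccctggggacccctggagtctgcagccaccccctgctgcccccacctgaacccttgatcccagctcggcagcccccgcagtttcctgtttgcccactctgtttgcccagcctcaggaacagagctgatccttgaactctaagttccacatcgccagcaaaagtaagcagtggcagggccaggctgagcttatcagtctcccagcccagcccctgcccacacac
Apoa5, chr9:46268358-46268657, + strand: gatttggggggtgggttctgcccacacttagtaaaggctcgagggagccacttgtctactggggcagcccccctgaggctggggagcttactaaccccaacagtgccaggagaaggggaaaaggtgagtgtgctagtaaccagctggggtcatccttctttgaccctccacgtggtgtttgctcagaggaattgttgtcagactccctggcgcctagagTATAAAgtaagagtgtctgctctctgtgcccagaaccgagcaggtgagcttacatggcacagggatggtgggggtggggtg
The only match to CAAAGTNCA in the 8 promoters was CAAAGTTCA in *Apoa4*, which begins 182 bases before the start, and 1.41% of 27025 promoters of this length hold such a match. TATAAA began 31 bases before the start of *Apoa5*, 60 before that of *Apob* and 212 before that of *Apoa2*, and 14.2% of all promoters hold it. AGGTCA matched in *Apoc2* alone and is in 16.04% of all promoters. TGACGTCA, which is in 1.88% of all promoters, matched in none of the 8. A match describes letters in these windows and no factor binding was measured.

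The signals are log2 values from robust multi-array averaging (RMA), so that a difference of 1 is a factor of 2 in signal. Array wt_1407_2 was nearly identical to wt_1420_6 over all probe sets, and so was wt_1407_5 to wt_1420_7. It is not known if these arrays come from separate mice. Each pair counts once in the wt mean and SD (n = 8), while wt medians, ranges and counts of arrays take each array singly. Arrays tg_1386_9 and wt_1386_4 were even closer to each other although their labels name different genotypes. On the main axis of variation of all probe sets (32.7% of the variance), tg_1420_4 and both tg_1423_2-8 arrays scored between 53.0 and 70.4. No other array exceeded 8.30. The main results on *Apoa4* and on the gene lists are therefore also given without these arrays. For the flanking genes and the genes ranked by likeness to *Apoa4* no such values are given. Array names are made of the genotype, a label number that recurs in both genotypes (6 such numbers) and a running number. Hepatocyte markers were high in all livers, with an average over 8 genes of 12.7 to 13.0 in tg and of 12.7 to 12.9 in wt livers, and none of them passed the threshold of an adjusted p of 0.05 (limma).

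*Apoa4*, which encodes apolipoprotein A-IV of chylomicrons and high density lipoproteins, averaged 9.72 ± 0.70 in *IMP2-2* tg livers (SD, n = 10) and 11.29 ± 1.27 in wt livers (SD, n = 8). Tg livers had a lowest value of 8.09, a median of 10.01 and a highest value of 10.24, against 9.63, 11.28 and 12.89 in wt livers. The limma difference, which counts all 20 arrays singly, was -1.63 on the log2 scale (SE 0.420), a signal of 0.324 times that of wt livers. 7 of the 10 tg livers lay close together between 9.90 and 10.24, and the other 3, tg_1423_2-8_1 (8.09), tg_1420_4 (9.03) and tg_1423_2-8_4 (9.37), lay below every wt liver. Wt livers fell into separate ranges. 5 wt arrays lay between 11.90 and 12.89, and the other 5 lay between 9.63 and 10.65, of which wt_1423_2-8_3 (9.63) and wt_1386_4 (10.05) lay inside the tg range. No tg liver reached the upper wt range.

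**Figure D1:**
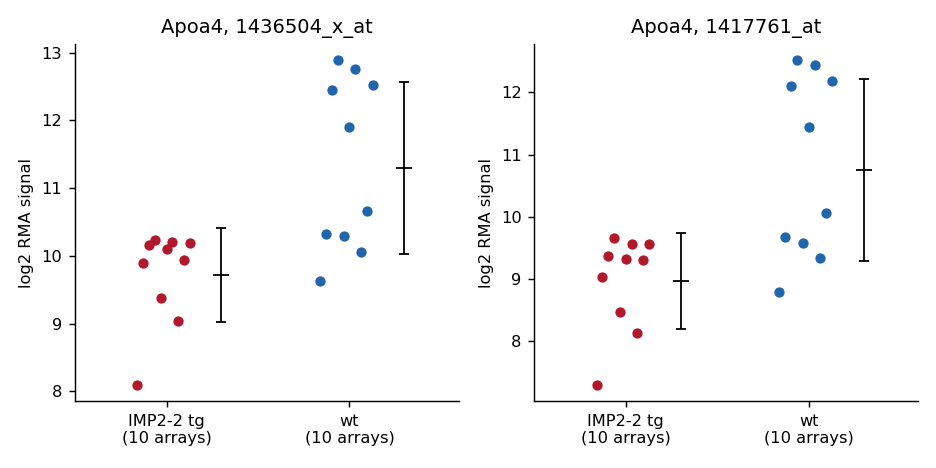
Log2 RMA signal of *Apoa4* in each liver for both of its probe sets (brighter one on the left), *IMP2-2* tg (red) left of wt (blue), with the mean ± SD beside the points (tg n = 10, wt n = 8 with near-identical arrays averaged) and sideways spread for legibility only. In the brighter probe set tg livers end at 10.24 while wt livers split into 9.63 to 10.65 and 11.90 to 12.89.

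The values above are those of the probe set with the higher mean, whose suffix (x_at) marks probes that may also match other transcripts. The second probe set, which lacks this suffix, gave 8.97 ± 0.77 in tg livers (SD, n = 10) and 10.75 ± 1.46 in wt livers (SD, n = 8). Its limma difference, again with all 20 arrays counted singly, was -1.84 (SE 0.476). Tg livers spanned 7.30 to 9.67 while wt livers spanned 8.80 to 12.51. Both probe sets ordered the livers almost alike, with a correlation of 0.998 over the 20 arrays, which are the same livers measured by different probes.

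Whether the difference in *Apoa4* depends on the label number was not tested, since some numbers hold a single array of each genotype. Wt arrays of the same number also lay far apart, with the wt_1407 arrays at 10.32 and 12.89. Each of these is nearly identical to a wt_1420 array, so the differences within these numbers are not independent. The difference in *Apoa4* within each label number is given as a description. It was -2.26 between tg_1371_2 and wt_1371_4, -1.60 between the tg_1407 and wt_1407 arrays, -1.94 between the tg_1420 and wt_1420 arrays and -2.35 between the tg_1423_2-8 and wt_1423_2-8 arrays. By contrast, tg_14231_6 had 10.24 and wt_14231_2 had 10.65, a difference of -0.42, and tg_1386_9 had 10.20 and wt_1386_4 had 10.05, a difference of 0.15 that was -0.01 in the other *Apoa4* probe set, where tg livers were lower within all 6 numbers. The arrays tg_1386_9 and wt_1386_4 are those that were nearly identical in all probe sets. Without tg_1420_4, tg_1423_2-8_1 and tg_1423_2-8_4 the difference was -1.24, and with the near-identical wt arrays averaged it was -1.57.

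Of the 16 member probe sets, 2 were below the threshold and lower in tg livers, both of *Apoa4*, and none was higher. Over the whole array, 0.663% of 45101 probe sets passed as lower and 1.88% as higher in tg livers. The members were chosen on this contrast, so nothing is read from their count. With the near-identical wt arrays averaged, without the 4 tg_1423_2-8 and wt_1423_2-8 arrays, or without tg_1420_4, tg_1423_2-8_1 and tg_1423_2-8_4, neither *Apoa4* probe set passed. The median difference over the 10 genes was -0.03, and over all 18194 genes it was -0.02. In these bulk samples, fewer cells of a type and less RNA per cell cannot be told apart.

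**Figure D2:**
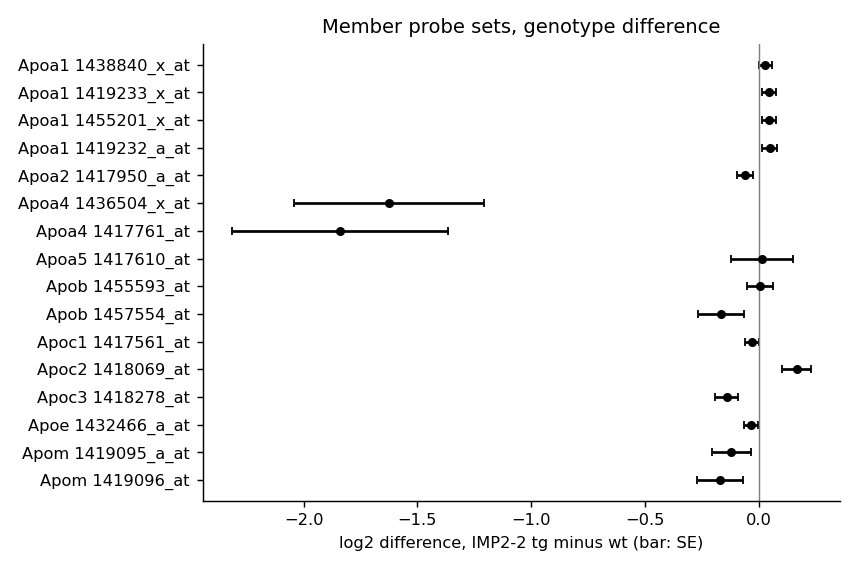
Log2 difference between *IMP2-2* tg and wt livers with its standard error for the 16 member probe sets, from the limma fit over all 20 arrays. Both *Apoa4* probe sets lie at -1.63 and -1.84, and the other 14 lie within 0.17 of zero.

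Among the apolipoproteins of high density lipoproteins, *Apoa1*, the activator of cholesterol esterification, had 14.04 ± 0.02 in tg livers (SD, n = 10) and 14.01 ± 0.04 in wt livers (SD, n = 8) in its brightest probe set. The differences of its 4 probe sets ran between 0.03 and 0.05. *Apoa1* adjoins *Apoc3* and *Apoa4* in the genome, yet its tg livers lay between 13.99 and 14.07 and its wt livers between 13.94 and 14.05, a spread of at most 0.11. *Apoa2*, the second protein of these particles, had a lowest value of 13.96, a median of 14.002 and a highest value of 14.03 in tg livers, against 13.98, 14.03 and 14.16 in wt livers. Its difference was -0.06 (SE 0.034). 5 wt arrays, with the near-identical wt_1407_5 and wt_1420_7 among them, lay above every tg liver. *Apom*, the carrier of sphingosine 1-phosphate, spanned 11.07 to 11.98 in tg livers and 11.56 to 11.90 in wt livers in the brighter probe set, with a difference of -0.12 (SE 0.087). The 2 lowest livers were tg_1423_2-8_4 and tg_1423_2-8_1, and all wt livers lay inside the tg range. In its other probe set the difference was -0.17 (SE 0.100). Over the 12 other fits the differences of *Apom* ran from -0.13 to -0.02 and, in the other probe set, from -0.18 to -0.03.

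Among the proteins of very low density lipoproteins, *Apob* had 13.19 ± 0.13 in tg livers (SD, n = 10) and 13.22 ± 0.11 in wt livers (SD, n = 8) in the brighter probe set. The limma difference, which counts all 20 arrays singly, was 0.01 (SE 0.058), and with the near-identical wt arrays averaged, as in these means, it was -0.03. A second, much dimmer *Apob* probe set had a difference of -0.16 (SE 0.102). *Apoe*, a ligand for the uptake of lipoprotein remnants that macrophages also make, had 13.77 ± 0.03 in tg livers (SD, n = 10) and 13.80 ± 0.04 in wt livers (SD, n = 8). Its difference was -0.03 (SE 0.031). The signal of *Apoe* spanned 0.10 in tg and 0.12 in wt livers. Macrophage markers differed between the same livers, as described below, and their part in the signal of *Apoe* was not tested. *Apoa1*, *Apoa2* and *Apoe* lay near the upper end of the scale, where the brightest probe set of each array reached 14.39 to 14.497. Compression of differences at that end was not tested.

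*Apoc2*, the activator of lipoprotein lipase, had a lowest value of 11.36, a median of 11.52 and a highest value of 11.71 in tg livers, against 11.04, 11.36 and 11.64 in wt livers. 5 wt arrays, with the near-identical wt_1407_5 and wt_1420_7 among them, lay below every tg liver, and the difference was 0.17 (SE 0.065). *Apoc3*, which inhibits lipolysis and remnant uptake, had a lowest value of 13.21, a median of 13.50 and a highest value of 13.56 in tg livers, against 13.42, 13.58 and 13.71 in wt livers. 7 wt arrays, with both near-identical pairs among them, lay above every tg liver, while tg_1423_2-8_1 (13.21) and tg_1420_4 (13.23) lay below every wt liver. Its difference was -0.14 (SE 0.052), which equals a signal of 0.907 times that of wt livers, and ran from -0.16 to -0.07 over the 12 other fits. *Apoc1*, an inhibitor of lipoprotein uptake, differed by -0.03 (SE 0.031). *Apoa5*, which promotes triglyceride clearance, differed by 0.01 (SE 0.137), or by -0.03 with the near-identical wt arrays averaged.

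*Apoa4* also varied more between livers of the same genotype than nearly any other gene. With the genotype means removed, its SD over the 18 profiles was 0.99, above that of 99.6% of all probe sets, whose median SD was 0.15. *Apoa5* had an SD of 0.34, above that of 91.8% of probe sets. The SDs of *Apoa1*, *Apoa2*, *Apoc1* and *Apoe*, at most 0.05 for the probe sets of these genes, were among the smallest on the array, with at most 0.075% of probe sets below them. *Apoa1*, *Apoa2* and *Apoe* lay near the upper end of the scale, and whether compression there made their SDs small was not tested. *Apoc3*, *Apob* and *Apoc2* had SDs of 0.11, 0.12 and 0.15 in their brighter probe sets.

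The spread of *Apoa4* between livers was shared with its neighbour *Apoc3*. This relation uses livers within a genotype and was not part of the choice of the members. Over the 10 tg livers Pearson's r was 0.94 (permutation p = 3.60e-04, adjusted over 19 relations p = 0.00684) and Spearman's rho was 0.84 (permutation p = 0.00382, adjusted p = 0.0726). Without the 2 livers farthest from the median of *Apoa4*, tg_1423_2-8_1 and tg_1420_4, r was 0.84. Within the 7 tg livers that lay between 9.90 and 10.24 in *Apoa4*, r was 0.39 over that narrow range (exact permutation p = 0.375), so the value of 0.94 rests on tg_1420_4, tg_1423_2-8_1 and tg_1423_2-8_4, which stood apart in their whole profile. Wt livers lay in separate ranges of *Apoa4* with 4 profiles each, too few within a range for a correlation. Over all 8 wt profiles together the relation with *Apoc3* also passed after adjustment, but that test spans both ranges. The wt arrays with the highest *Apoc3*, wt_1420_7 (13.71) and wt_1407_5 (13.68), had 12.76 and 12.89 in *Apoa4*, and the wt array with the lowest *Apoc3*, wt_1423_2-8_3 (13.42), had the lowest *Apoa4* (9.63). The change in *Apoc3* was small beside that in *Apoa4*. Over all livers *Apoc3* spanned 13.21 to 13.71 while *Apoa4* spanned 8.09 to 12.89.

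**Figure D3:**
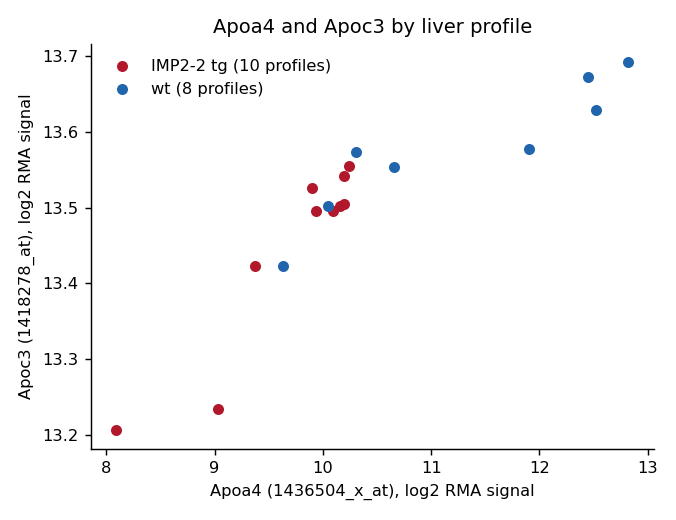
Log2 RMA signal of *Apoc3* against that of *Apoa4*, a point for each of the 10 *IMP2-2* tg (red) and 8 wt (blue) profiles, with near-identical wt arrays averaged. Profiles with more *Apoa4* mostly had more *Apoc3*, from 8.09 and 13.21 in tg_1423_2-8_1 upwards, and the axes differ in scale.

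The other cluster genes did not share this course in tg livers. Against *Apoa4*, r was -0.02 for *Apoa1* (adjusted permutation p = 0.957) and -0.70 for *Apoa5* (adjusted permutation p = 0.136) over 10 tg livers. For the remaining members r lay between -0.26 (*Apoc1*) and 0.63 (*Apoe*), and none passed after adjustment. Of the regulators and partners tested, *Creb3l3*, a fasting-responsive factor known to drive *Apoa4* in mouse liver, gave r = -0.64 (adjusted permutation p = 0.150). *Fgf21*, a hormone under the same control, gave r = 0.77 (adjusted permutation p = 0.0939). *Cidec*, listed with *Fgf21* among the CREB3L3 or PPARA targets, gave r = -0.83 (adjusted permutation p = 0.0559) and a Spearman's rho of -0.44. The signal of *Cidec* was dim, between 2.53 and 3.19 in tg livers. *Mttp*, the triglyceride transfer protein needed for lipoprotein assembly, gave r = -0.22 (adjusted permutation p = 0.666). Within the 7 tg livers other than tg_1420_4, tg_1423_2-8_1 and tg_1423_2-8_4, r was 0.09 for *Apoa5* and -0.07 for *Creb3l3*. In these 7 livers r was 0.08 for *Fgf21*, 0.50 for *Cidec*, 0.48 for *Apoa1* and -0.68 for *Mttp*, and none of the 19 relations passed. Over the 10 tg livers, 1 of 19 relations passed, that with *Apoc3*. Over the 18 profiles with genotype means removed, for which the test was planned, 2 passed, those with *Apoa2* and *Apoc3*. In tg livers alone r was 0.38 for *Apoa2* (adjusted permutation p = 0.617).

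*Apoa5* separated the livers by label number and not by genotype. It had 13.17 and 13.19 in the tg_1423_2-8 livers and 12.87 and 13.13 in the wt_1423_2-8 livers, while the 16 other livers lay between 12.02 and 12.74. The label numbers differed in *Apoa5* in a limma F test with genotype in the fit (F = 14.2, adjusted p = 0.00370), which was chosen after seeing the data. The test passed in 2.59% of all 45101 probe sets and in 1 of the 16 member probe sets. With 1 array kept of each near-identical wt pair the adjusted p was 0.0144, and without the 4 tg_1423_2-8 and wt_1423_2-8 arrays it was 0.823. The sources used here do not say what the number stands for. *Apoa4* did not pass this test (adjusted p = 0.819).

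**Figure D4:**
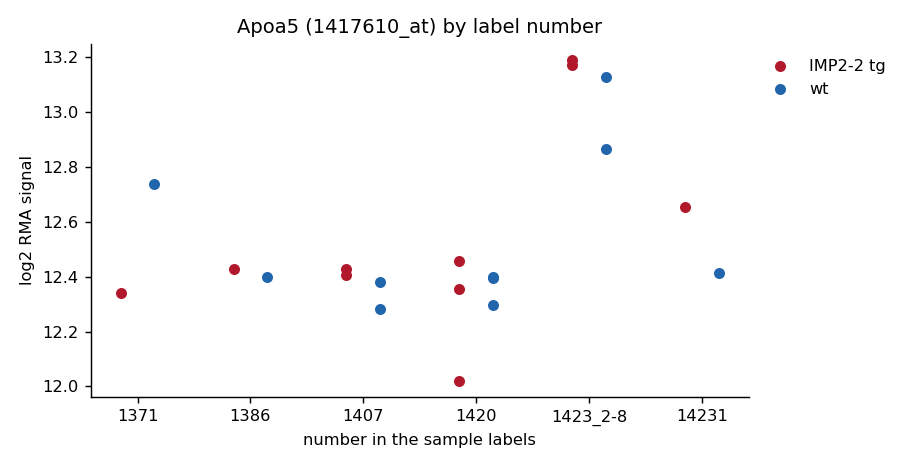
Log2 RMA signal of *Apoa5* in each of the 20 livers by the number in its label, *IMP2-2* tg (red) left of wt (blue) within a number. The tg_1423_2-8 and wt_1423_2-8 livers lie between 12.87 and 13.19, above the 16 others, which end at 12.74.

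The genes around the members were tested with limma over all probe sets. Of 107 genes listed as other apolipoproteins, lipoprotein assembly and remodelling, lipoprotein receptors, regulators of apolipoprotein genes and CREB3L3 or PPARA targets, 91 were measured, of which 5 were higher and 0 lower in tg livers (15 and 12 at an unadjusted p under 0.05). Over all 18194 genes, 2.98% were higher and 0.967% lower. With the label number as a term in the fit, 6 were higher and 1 lower, against 5.39% and 1.88% of all genes. None of the 5 passed without the 4 tg_1423_2-8 and wt_1423_2-8 arrays, nor without tg_1420_4, tg_1423_2-8_1 and tg_1423_2-8_4. In these fits, which have fewer arrays, all 5 kept their direction, with *Lpl* at 0.65 and 0.56, *Abca1* at 0.32 and 0.27, *Abcg1* at 0.38 and 0.33, *Apobec1* at 0.28 and 0.29 and *Mylip* at 0.26 and 0.27.

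Lipoprotein assembly and remodelling had 4 of its 20 measured genes higher. *Lpl*, the lipase that ApoC-II activates and ApoC-III inhibits, had a lowest value of 10.80, a median of 11.25 and a highest value of 12.14 in tg livers, against 10.14, 10.52 and 11.19 in wt livers. 7 tg livers lay above every wt liver, with tg_1420_4 (12.14) and tg_1423_2-8_1 (12.08) highest. *Lpl* rose by 0.83 (SE 0.167, limma adjusted p = 0.0136), or 1.77-fold, and tg livers were higher within all 6 label numbers. Its second probe set rose by 0.88 (SE 0.176, limma adjusted p = 0.0134). *Abca1*, the transporter that loads cholesterol onto ApoA-I, rose by 0.39 (SE 0.078, limma adjusted p = 0.0122), with 11.34 to 12.02 in tg and 11.17 to 11.41 in wt livers. Its dimmer probe sets differed by 0.29 and 0.31 (limma adjusted p = 0.301 and 0.107). *Abcg1*, which exports cholesterol to high density lipoproteins, rose by 0.44 (SE 0.095, limma adjusted p = 0.0197), with 8 of 10 tg livers above every wt liver, while its dimmer probe set differed by -0.01 (limma adjusted p = 0.948). *Apobec1*, the deaminase that edits *Apob* mRNA, rose by 0.41 (SE 0.101, limma adjusted p = 0.0370) and lost this call in 11 of the 20 fits that left out 1 array, those without tg_1407_3, tg_1420_4, tg_1420_14, either tg_1423_2-8 array, wt_1407_2, wt_1407_5, wt_1420_7, either wt_1423_2-8 array or wt_14231_2. With the near-identical wt arrays averaged, *Lpl*, *Abcg1* and *Apobec1* no longer passed, at differences of 0.77, 0.43 and 0.42.

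Of the other assembly genes, *Mttp* differed by -0.10 (limma adjusted p = 0.458), *Pltp*, the phospholipid transfer protein, by -0.20 (limma adjusted p = 0.283) and *Lcat*, the cholesterol-esterifying enzyme that ApoA-I activates, by -0.04 (limma adjusted p = 0.683). Among 17 receptor genes *Mylip*, a ubiquitin ligase that acts on lipoprotein receptors, was the 1 that rose, by 0.27 (SE 0.060, limma adjusted p = 0.0222). *Mylip* spanned 7.33 to 7.60 in tg and 6.92 to 7.44 in wt livers, and with quantile normalization repeated it no longer passed (difference 0.20, limma adjusted p = 0.0678). *Scarb1*, the high density lipoprotein receptor, differed by 0.22 (limma adjusted p = 0.221). *Lrpap1*, a receptor chaperone, differed by 0.32 (limma adjusted p = 0.0693) and passed with the label number as a term (adjusted p = 0.0497).

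**Figure D5:**
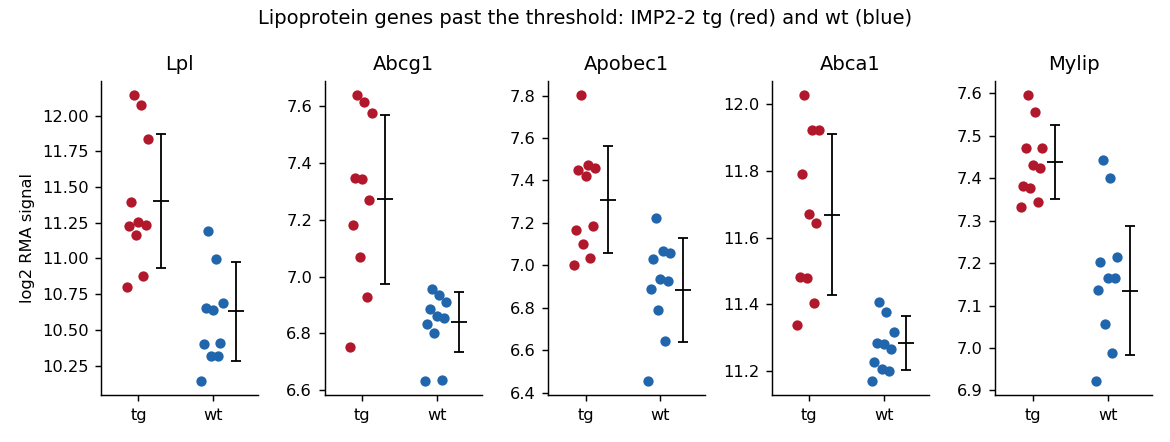
Log2 RMA signal of *Lpl*, *Abcg1*, *Apobec1*, *Abca1* and *Mylip* in each liver, *IMP2-2* tg (red) left of wt (blue), with the mean ± SD beside the points (tg n = 10, wt n = 8) and a scale of its own for each gene. All 5 genes were higher in tg livers, by 0.27 to 0.83 in the limma fit, and their ranges in tg and wt livers overlapped.

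Macrophages are known to express *Lpl*, *Abca1* and *Abcg1*. Of 10 macrophage markers, 7 were higher in the same tg livers and 0 lower (9 higher with the label number as a term). Over all 18194 genes, 2.98% were higher and 0.967% lower (5.39% higher with the label number as a term). None of the 7 markers passed without the 4 tg_1423_2-8 and wt_1423_2-8 arrays, nor without tg_1420_4 and both tg_1423_2-8 arrays. The average signal of the list ran between 7.78 and 8.57 in tg livers and between 7.44 and 8.09 in wt livers, and none of the 10 lay below the median of all probe set means. Their part in the signals of *Lpl*, *Abca1* and *Abcg1* was not tested.

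None of 29 measured regulators passed in either direction. *Hnf4a*, the master regulator of many apolipoprotein genes, differed by 0.07 (SE 0.087, limma adjusted p = 0.701), *Creb3l3* by -0.01 (SE 0.085, limma adjusted p = 0.944) and *Ppara*, the fatty acid sensor, by -0.28 (SE 0.099, limma adjusted p = 0.115). *Mlxipl*, which encodes the carbohydrate-responsive factor ChREBP, differed by -0.51 (SE 0.153, limma adjusted p = 0.0737) and passed as lower with the label number as a term (adjusted p = 0.0396). None of the 11 CREB3L3 or PPARA targets passed. *Fgf21* spanned 5.28 to 6.17 in tg livers and 4.49 to 7.55 in wt livers, a difference of -0.67 (SE 0.296, limma adjusted p = 0.203). Among 14 other apolipoprotein genes none passed, and the largest difference was in *Apon*, at -0.53 (SE 0.185, limma adjusted p = 0.112). *Apon* had 10.14 to 11.92 in tg and 11.82 to 12.07 in wt livers.

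Because the intestine is the other main source of *Apoa4*, enterocyte markers were examined. None of 11 passed, and the average of the list ran between 4.22 and 4.45 in tg livers and between 4.32 and 4.45 in wt livers. 9 of the 11 lay below the median of all probe set means (4.53). *Fabp2*, a fatty acid binding protein that mouse liver also expresses, was well above it, with 9.86 to 10.66 in tg and 10.26 to 11.06 in wt livers, and *Alpi* was the other. *Fabp2* differed by -0.37 (SE 0.120, limma adjusted p = 0.0907). *Slc5a1*, the sodium glucose cotransporter, differed by 0.48 (SE 0.137, limma adjusted p = 0.0600) and passed as higher with the label number as a term (adjusted p = 0.0379). *Cdx2* and *Vil1*, which define the intestinal epithelium, had at most 4.33 and 3.94 in tg and 4.45 and 4.02 in wt livers.

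Flanking genes of the chromosome 9 cluster were measured on both sides. *Sik3*, the gene before *Apoa1*, differed by 0.27 (SE 0.114, limma adjusted p = 0.184), and *Zpr1*, the gene after *Apoa5*, by 0.10 (SE 0.087, limma adjusted p = 0.551). *Pafah1b2*, the gene before *Sik3*, rose by 0.54 (SE 0.130, limma adjusted p = 0.0328), against the direction of *Apoa4*. *4931429L15Rik*, the third gene after the cluster, fell by 0.21 (SE 0.053, limma adjusted p = 0.0417), in the direction of *Apoa4*. On chromosome 7, *Apoc4*, which lies between *Apoc2* and *Apoc1*, differed by -0.05 (SE 0.046, limma adjusted p = 0.598), and the nearest measured genes on either side of this cluster, *Clptm1* and *Tomm40*, differed by 0.03 and -0.09 (limma adjusted p = 0.771 and 0.498).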

How the data were processed

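RNA from the livers of 10 *IMP2-2* tg mice and 10 wt mice was hybridised to Affymetrix mouse genome arrays, 1 array per labelled sample. The deposited values are log2 signals that the authors made with RMA (background correction, quantile normalization and summary over the probes of a probe set). The sources used here give no version of RMA. Genes were named from the platform annotation, in which 34958 of 45101 probe sets have 1 symbol, 932 several and 9211 none, and genes with several probe sets were represented by that with the highest mean. Genotype differences (tg minus wt) came from limma 3.58.1 in R 4.3.3, with lmFit and eBayes on all 20 arrays and genotype as the only term. Adjusted p values are those of Benjamini and Hochberg across the 45101 probe sets, and their threshold was 0.05. The number of arrays limits the precision, and p values measure only the spread between these samples, which may be technical.

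The 6 numbers in the labels are shared by both genotypes. Arrays of the same number deviated together from their genotype means, with correlations of 0.184 to 0.404 in all 6 numbers, and 5 of the 6 matched their own number best, which is where the pairing comes from. A fit with the number as a term was therefore run as well. The members and gene lists were chosen with earlier results of these data known. All members and probe sets are described, together with all genes of a list that passed (up to 6) and up to 3 of a fixed set of regulators and partners per list, and the 5 genes most and the 5 least like *Apoa4*. *Pafah1b2*, *Sik3*, *Zpr1*, *4931429L15Rik*, *Lrpap1*, *Mlxipl*, *Apon*, *Cidec*, *Fabp2*, *Alpi* and *Slc5a1* were named after their values were seen. Relations of *Apoa4* with 19 genes were tested with 100000 permutations within genotype, or with all orders for under 10 livers. These tests were planned over the 18 profiles with genotype means removed. Since wt livers lay in separate ranges of *Apoa4*, correlations are given for tg livers instead (Python 3.11.15, scipy 1.17.1). There tg_1420_4, tg_1423_2-8_1 and tg_1423_2-8_4 lay apart as well. The scripts were tested on simulated data. Listed genes without a probe set of their own were not analysed here.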

Additional observations from a re-analysis of the deposited data

How the results depend on the processing

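The direction of the *Apoa4* difference was the same in all 32 alternatives, which gave -1.82 to -1.24, and -1.82 to -1.44 with 1 array left out. Its call held in 7 of 12 other fits and in 8 of 20 fits without 1 array, and was lost without any one of tg_1407_3, tg_1407_9, tg_1420_4, tg_1420_14, tg_1423_2-8_1, tg_1423_2-8_4, wt_1371_4, wt_1407_5, wt_1420_1, wt_1420_7, wt_1423_2-8_9 and wt_14231_2. The 2 member probe sets lower in tg livers became 0 with trend and robust empirical Bayes, array weights, near-identical wt arrays averaged, no tg_1423_2-8 or wt_1423_2-8 arrays, or no tg_1420_4, tg_1423_2-8_1 and tg_1423_2-8_4, and 0 to 2 with 1 array left out. Over all probe sets, 850 were higher and 299 lower in tg livers. With the label number as a replicate block they were 1634 and 607, with near-identical wt arrays averaged 245 and 31, with no tg_1423_2-8 or wt_1423_2-8 arrays 69 and 5, and with no tg_1420_4 or tg_1423_2-8 arrays 158 and 8. Lower calls were 542 with the number as a random block, 476 with quantile normalization repeated, 156 with arrays centred on medians, 163 with array weights and 484 without tg_1386_9 and wt_1386_4. With 1 array left out, 391 to 1684 were higher and 72 to 776 lower, with the most calls without tg_1386_9. Of the 91 genes of the lists, 5 were higher, and 3 with quantile normalization repeated (without *Apobec1* and *Mylip*), 2 with near-identical wt arrays averaged and 0 with either no tg_1423_2-8 or wt_1423_2-8 arrays or no tg_1420_4 or tg_1423_2-8 arrays, and 4 to 6 with 1 array left out. 0 were lower, and 1 with the number as a block, fixed or random, among probe sets at or above the median mean and without tg_1386_9 and wt_1386_4, and 0 to 2 with 1 array left out. Apart from *Mlxipl*, *Lrpap1* and *Slc5a1* and 2 macrophage markers, the paired fit changed no call of a gene of these lists. Of 19 relations with *Apoa4*, 2 passed over all 18 profiles, those with *Apoa2* and *Apoc3*. With no tg_1423_2-8 or wt_1423_2-8 arrays, in tg livers and in wt profiles 1 passed, each time that with *Apoc3*. In the 7 other tg livers, a setting chosen after seeing the data, 0 passed. The causes were not tested.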

Other observations

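Over the 18 profiles, the 5 genes whose signal was most like that of *Apoa4* were not apolipoproteins. Likeness was Pearson's r over the 18 profiles with genotype means removed, among 11774 genes with a mean signal at or above the median, and it is a description, since wt livers lie in separate ranges of *Apoa4* and tg_1420_4, tg_1423_2-8_1 and tg_1423_2-8_4 carry much of the tg spread. *Khk*, the ketohexokinase that starts fructose breakdown, came first (r = 0.87, and 0.87 in tg livers alone). *Anapc13*, a subunit of the anaphase-promoting complex, had 0.86 (0.93 in tg livers), *Ahnak*, a large scaffold protein, 0.85 (0.83 in tg livers), *Hacl1*, the peroxisomal enzyme of phytanic acid breakdown, 0.85 (0.80 in tg livers) and *Agpat3*, an acyltransferase of phospholipid synthesis, 0.85 (0.88 in tg livers). *Apoc3* ranked 8 with 0.83, but in tg livers alone its r of 0.94 was above that of each gene named before it. *Apoa2* ranked 121 with 0.70, *Apoe* 916 with 0.49, *Apom* 1213 with 0.44, and the remaining members ranked between 5304 (*Apoc1*) and 10995 (*Apoa1*). *Agpat3* fell by 0.32 in tg livers (SE 0.085, limma adjusted p = 0.0471), and *Khk* differed by -0.38 (SE 0.120, limma adjusted p = 0.0827).

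At the other end stood *Glud1*, the mitochondrial glutamate dehydrogenase (r = -0.74, and -0.88 in tg livers alone), the imprinted zinc finger gene *Peg3* (-0.72, and -0.66 in tg livers), *Trmt1*, a tRNA methyltransferase (-0.71, and -0.73 in tg livers), *Cps1*, which opens the urea cycle (-0.71, and -0.76 in tg livers) and *Ywhaq*, a 14-3-3 protein (-0.70, and -0.90 in tg livers). *Peg3* rose by 1.56 in tg livers (SE 0.297, limma adjusted p = 0.00998).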
